A study of Caenorhabditis elegans with 20 samples.

Results

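The nuclear genes that encode the mitochondrial respiratory chain and the ATP synthase were followed in whole worms of Caenorhabditis elegans, in 2 transgenic strains and at 2 ages. The genes were chosen by function, as named subunits of complexes I to V with the mobile carriers. The choice used no expression value, though earlier results of these data were known when it was made. The list held 34 genes, of which 33 were in the count table of 21383 genes: 8 of complex I, 4 of complex II, 5 of complex III, 6 of complex IV, 8 of complex V and 2 carriers. The sequence name listed for atp-2, the catalytic F1 beta subunit, was neither in the table nor in the annotation. The annotation gives atp-2 under another sequence name, C34E10.6, and its values are reported at the end as those of a gene outside the list.

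Both strains carried rde-1(ne300), a loss of an Argonaute protein that is needed for RNA interference and transgene silencing, and unc-119(ed3), which was rescued by unc-119(+) on an extrachromosomal array. The control strain, SD1965, carried that marker alone. The elt-2 overexpressing strain, SD1963, also carried elt-2:GFP under its own upstream sequence. elt-2 encodes the GATA factor of the intestine. Each strain is a single transgenic line, and an extrachromosomal array can be lost from some cells and animals. Larvae of the L4 stage were taken from normal plates, and adults at day 13 (Day 13) from plates with FUDR, which blocks reproduction, after repeated washes over nylon mesh and removal of the dead. Ageing, the larval-to-adult transition and the drug are therefore combined in the age comparison and cannot be told apart. Every group had 5 libraries, labelled A to E, each from poly(A) RNA sequenced at the 3' end.

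Complexes I to IV pass electrons from NADH and succinate to oxygen and, apart from complex II, pump protons across the inner mitochondrial membrane. Complex V, the ATP synthase, lets the protons flow back to make ATP, and the ADP/ATP carrier exchanges the product with the cytosol. In C. elegans, mutants of isp-1, nuo-6 and other chain genes are long-lived, while gas-1 and mev-1 mutants are short-lived, so the chain is a classical subject of ageing research in this animal. A core set of subunits is encoded by mitochondrial DNA and the rest, including all genes listed here, by the nucleus.

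The libraries held 10749795 to 42317549 counts, so that 3 counts correspond to 0.0709 to 0.279 per 1000000 counts of the raw total. Levels are given in CPM, the counts per 1000000 after each library total was multiplied by its TMM scaling factor. The TMM factors were 0.648 to 2.21, so the floor and the levels are not on exactly the same scale. Libraries D and E differed from A to C within the L4 groups. The yolk protein gene vit-2, made by the adult intestine, measured 3423, 854 and 3354 CPM in control L4 libraries A to C and 5.45 and 0.473 CPM in D and E. The adult cuticle collagen gene col-19 measured 8015, 4026 and 7070 CPM in A to C and 1.58 and 1.36 CPM in D and E. The L4 libraries A to C thus held transcripts of adults that libraries D and E nearly lacked, in disagreement with a uniform L4 label. The 4 intestinal markers summed to 32.8 to 58.9 CPM in control L4 libraries A to C and to 491.6 and 617 CPM in D and E. The labels give no batch. Counts of genes called with age and between strains are accordingly also given within libraries A to C and within D and E.

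The main finding was a lower level of these genes at Day 13 in both strains. At a false discovery rate of 10%, 14 of the 33 genes tested were lower at Day 13 than at L4 in control worms and 0 were higher (edgeR quasi-likelihood test with Benjamini-Hochberg adjustment over all genes). Among all 9063 genes tested, 23.7% were lower and 21.9% higher. In elt-2 overexpressing worms 18 of 33 genes were lower and 0 higher, where 23.4% of 8863 genes were lower and 25.8% higher. The log2 change was negative for 31 genes in control worms, with a median of -1.08 and a range of -2.21 to 0.63, while the median of all genes tested was 0.12. It was negative for 32 genes in overexpressing worms, with a median of -1.16 and a range of -3.03 to 0.22, while the median of all genes was 0.22. In bulk RNA, fewer cells of a type and less RNA per cell cannot be told apart.

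**Figure D1:**
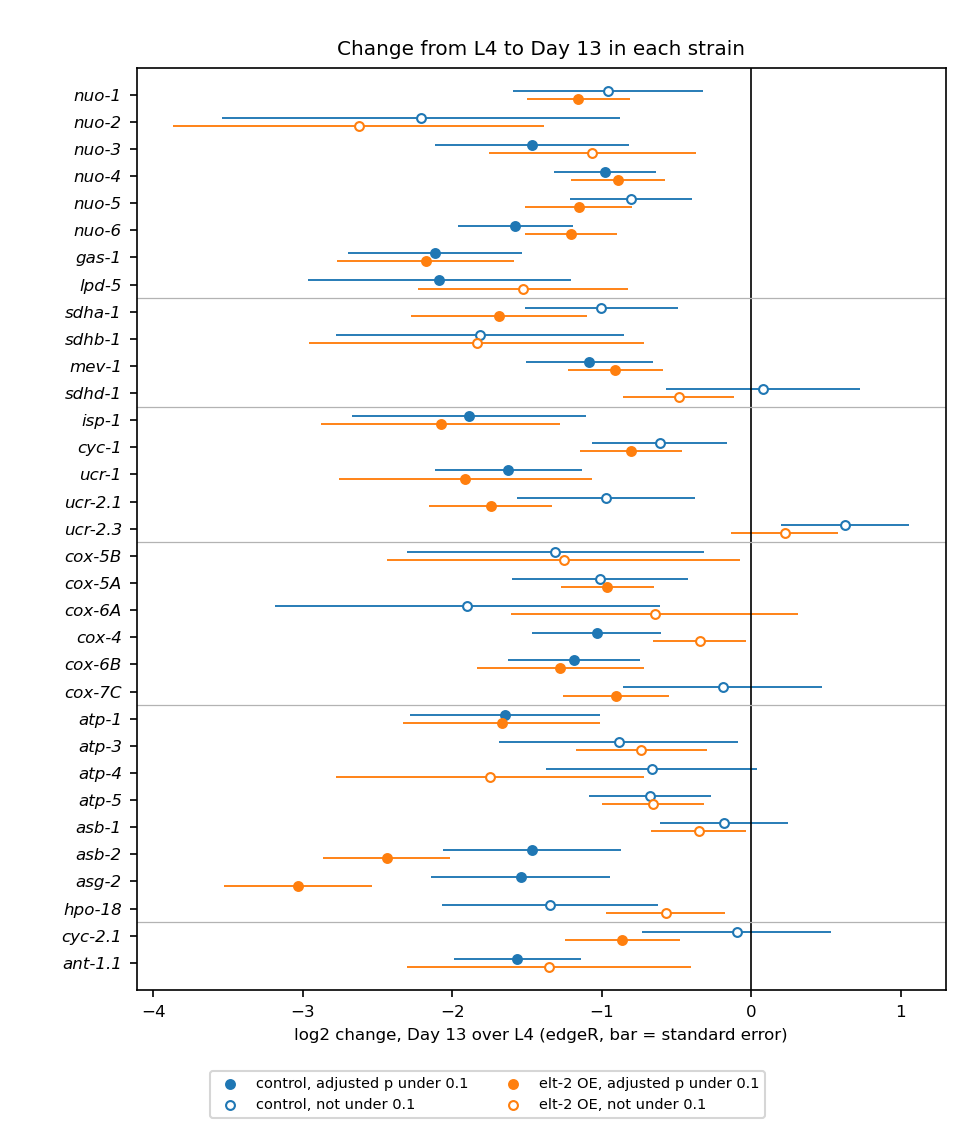
Log2 change from L4 to Day 13 of the 33 genes (edgeR; points are estimates, bars are standard errors; blue, control; orange, elt-2 overexpressing; filled, adjusted p under 0.1). Most points lie left of 0, 14 are filled in control and 18 in overexpressing worms, and ucr-2.3 lies right of 0 in both.

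The 10 genes lower in both strains were gas-1, nuo-4, nuo-6, mev-1, isp-1, ucr-1, cox-6B, atp-1, asb-2 and asg-2. They made up 71.4% of the control calls and 55.6% of those in overexpressing worms. The matching overlap over all genes was not counted. By complex, the calls in control and overexpressing worms numbered 5 and 5 of 8 for complex I, 1 and 2 of 4 for complex II, 2 and 4 of 5 for complex III, 2 and 3 of 6 for complex IV, 3 and 3 of 8 for complex V and 1 and 1 of 2 for the carriers. Deviations of same-letter libraries from their group means correlated by 0.410 to 0.642 in control worms and by only 0.103 to 0.589 in overexpressing worms. These values cannot tell pairing by letter from the split of A to C and D and E. With the letter as a replicate block, 24 genes were lower in control worms, among them all 14, beside 29.9% of all genes. In overexpressing worms 22 were lower with the block, among them all 18, beside 25.4% of all genes. Library totals without the top 3% of genes moved the median of all genes from 0.12 to 0.61 in control and from 0.22 to 0.56 in overexpressing worms, and left 7 genes lower (21.2%, against 18.6% of all genes) and 1 higher (ucr-2.3; 3.03%, against 35.1%) in control worms. In overexpressing worms they left 10 lower (30.3%, against 19.5% of all genes). Without a filter on low counts, 5 were lower in control worms (15.2%, against 17.4% of 18065 genes) and 11 in overexpressing worms (33.3%, against 20.2% of 18080 genes). Leaving out a single library gave 5 to 11 calls in control worms, with 5 without control L4 library E, and 6, 7, 7, 8 and 7 without control Day 13 libraries A, B and C and control L4 libraries B and C. In 3 of these 10 fits the share of the chain genes lower was below that of all genes, at 15.2% against 21.9% without control L4 library E, 18.2% against 21% without control Day 13 library A and 21.2% against 22% without control Day 13 library B. The share of control calls above that of all genes was thus lost without any of these 3 libraries and without the filter, while the median log2 change of the chain genes was -1.19 to -0.97 with a library left out and -0.82 without the filter. The range was 9 to 19 calls in overexpressing worms (27.3% to 57.6%, against 21% to 24.5% of all genes), with 9 and 10 without overexpressing Day 13 libraries B and C.

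The size of the fall depended on the letter. In control worms the median log2 change of the 33 genes was -0.32, -0.42 and -0.35 for letters A to C and -1.59 and -2.2 for D and E. The numbers of genes lower at Day 13 were 21, 25, 23, 32 and 31 in the order of the letters. In overexpressing worms the medians were -0.67, -0.83 and -0.55 for A to C and -0.96 and -1.65 for D and E, with 30, 30, 23, 30 and 33 genes lower. The medians of 7175 genes with a mean of at least 1 CPM also differed by letter, at 0.22, 0.29, 0.24, 0.02 and 0.08 for A to E in control worms. In overexpressing worms they were 0.23, 0.16, 0.22, 0.08 and 0.07. For control libraries A to E the TMM factors were 0.648, 0.683, 0.656, 1.12 and 0.729 at L4. At Day 13 they were 0.863, 0.804, 0.861, 2.21 and 2.06. Overexpressing worms had 0.875, 0.743, 0.882, 1.27 and 0.854 at L4 and 1.38, 0.91, 0.901, 1.3 and 1.69 at Day 13. A larger factor lowers the CPM of every gene, and its part in the difference between letters was not tested. Tested in letters A to C alone, 20 genes were lower and 1 was higher in control worms (3.03%), beside 29.6% of all genes lower and 25.8% higher. In D and E alone 26 were lower in control worms (28.1% of all genes lower). In overexpressing worms 20 genes were lower in A to C (25.5% of all genes) and 21 in D and E (29.1%). In each strain 15 genes were lower in both sets, and the overlap over all genes was not counted. The gene called higher was atp-4, coupling factor 6, with a log2 change of 1.11 in letters A to C (edgeR, adjusted p = 0.022) against -1.74 in D and E (edgeR, adjusted p = 0.0084).

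Markers of other tissues moved over the same comparison. All 3 body muscle markers were lower at Day 13 in both strains, and their summed level fell from 266 to 392 CPM in control L4 libraries to 3.33 to 11.1 CPM in control Day 13 libraries. In overexpressing worms it ranged from 173 to 304 CPM at L4 and from 2.32 to 4.62 CPM at Day 13. Both pharyngeal myosin genes and 3 of 4 intestinal markers (act-5, ifb-2 and ges-1, but not elt-2) were lower in both strains as well. The hypodermal genes rol-6 and dpy-7 were lower in both strains and col-19 in overexpressing worms, the neuronal gene snb-1 was higher and rab-3 lower in both, and of the oocyte and yolk markers puf-5 was higher in both and rme-2 in overexpressing worms. Within letters A to C and within D and E, all 3 body muscle and both pharyngeal genes were lower in each strain. Of the intestinal markers, 2 of 3 tested were lower in A to C and 4 of 4 in D and E in control worms, and 3 of 4 in each set in overexpressing worms. The 3 oocyte and yolk markers differed by set, with 3 higher in D and E of each strain, while in A to C 0 were higher in either strain and 1 was lower in overexpressing worms. All 3 hypodermal genes were lower in A to C of each strain, and in D and E 2 were lower and 1 higher. The part of tissue composition in the fall of the chain genes was not tested.

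**Figure D2:**
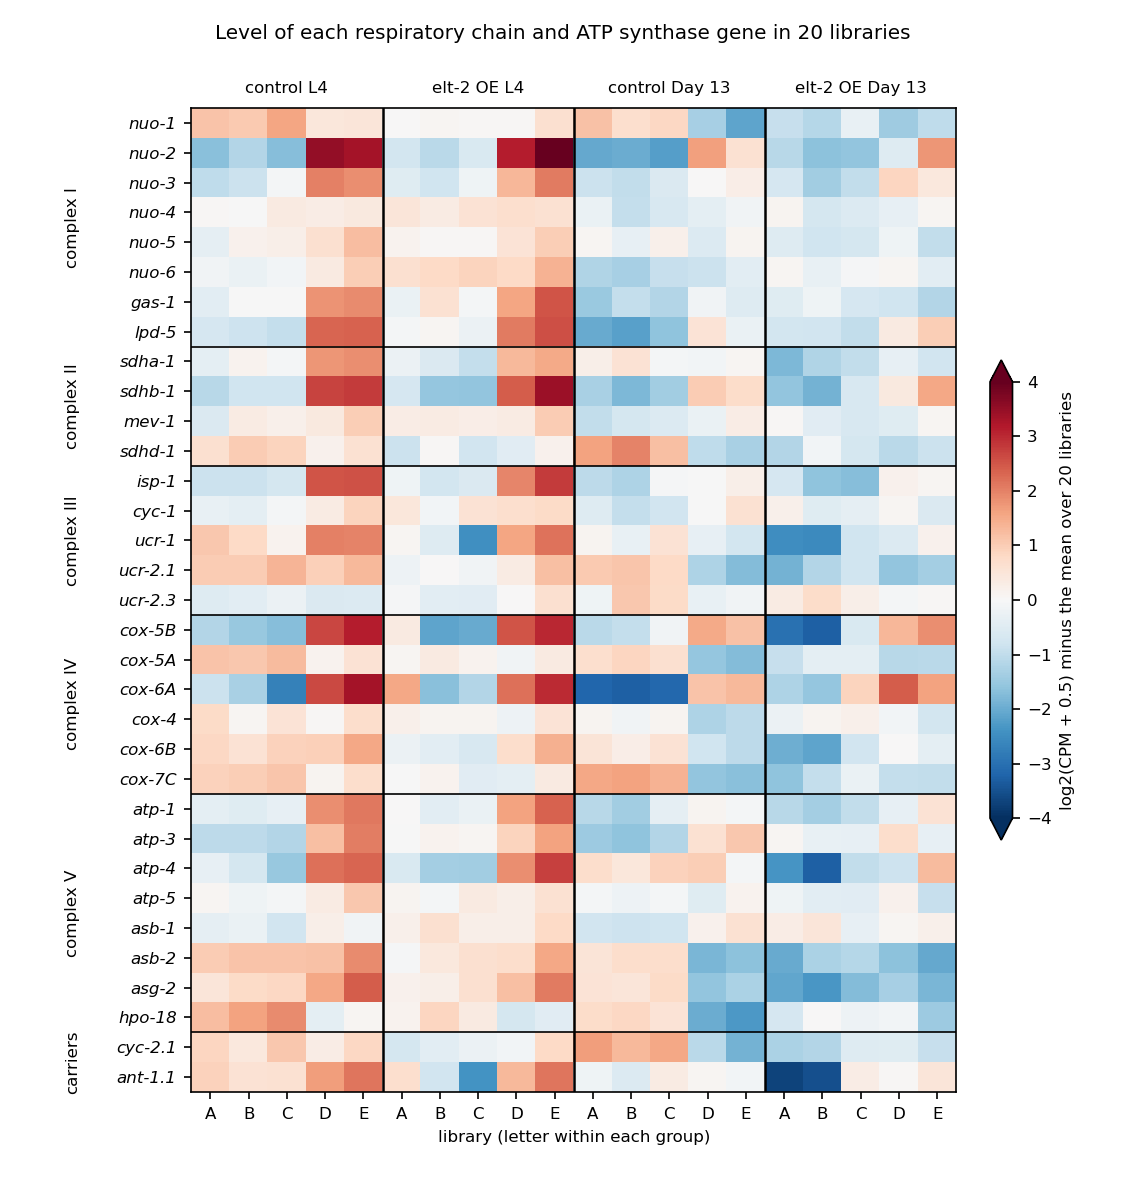
Level of each of the 33 genes (rows, by complex) in each of 20 libraries (columns, 5 per group), as log2(CPM + 0.5) minus that gene's mean over all libraries; the colour scale ends at -4 and 4. L4 libraries D and E are red for many genes, and control Day 13 libraries D and E are blue for nuo-1, sdhd-1, cox-5A, cox-7C, asb-2, asg-2, hpo-18 and cyc-2.1.

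Complex I, the NADH dehydrogenase, takes electrons from NADH. All 8 of its genes had negative log2 changes in both strains, with medians of -1.52 and -1.18. gas-1 (K09A9.5, WBcel235 chromosome X, 15586786 to 15590397) encodes the core subunit at the quinone site. gas-1 measured 2.93, 3.96, 3.97, 15.4 and 16.4 CPM in control L4 libraries A to E and 1.13, 1.84, 1.52, 3.62 and 2.66 CPM at Day 13. Overexpressing worms held 3.31, 6.5, 3.86, 13 and 25.4 CPM of gas-1 at L4 and 2.72, 3.5, 2.35, 2.12 and 1.54 CPM at Day 13. Every letter was lower at Day 13 in both strains, and the groups overlapped, with some L4 libraries of A to C within the Day 13 range. The log2 changes of gas-1 were -2.12 ± 0.58 in control (SE, edgeR, adjusted p = 0.015) and -2.18 ± 0.59 in overexpressing worms (SE, edgeR, adjusted p = 0.013), and both calls held whichever library was left out.

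nuo-6 (W01A8.4, chromosome I, 7068116 to 7069186) encodes an accessory subunit of the membrane arm. nuo-6 measured 3.45, 3.1, 3.5, 5.11 and 8.16 CPM in control L4 libraries and 1.37, 1.24, 1.78, 1.88 and 2.75 CPM at Day 13. Overexpressing worms held 6.32, 7.04, 7.55, 7.01 and 10.8 CPM of nuo-6 at L4 and 4.08, 3.03, 3.66, 4.09 and 2.72 CPM at Day 13. The ages did not overlap in either strain. The log2 changes were -1.58 ± 0.38 (SE, edgeR, adjusted p = 0.0083) and -1.2 ± 0.31 (SE, edgeR, adjusted p = 0.0091), and they held under every leave-out. The accessory subunit gene nuo-4 also separated the ages in both strains, from 6.17 to 8.34 CPM at L4 to 2.93 to 5.5 CPM at Day 13 in control and from 7.88 to 10.1 to 3.64 to 6.73 CPM in overexpressing worms. Its call was lost without any of 5 of the 10 control libraries, and without overexpressing Day 13 library B or C.

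nuo-2 (T10E9.7, chromosome I, 6530131 to 6531963), a subunit of the peripheral arm, had the change of greatest size in control worms among complex I genes. nuo-2 measured 0.991, 1.64, 0.973, 53.7 and 47 CPM in control L4 libraries and 0.65, 0.707, 0.529, 14.4 and 6.85 CPM at Day 13. Overexpressing worms held 2.36, 1.76, 2.66, 41.4 and 81.2 CPM of nuo-2 at L4 and 1.71, 1.03, 1.09, 2.82 and 15.9 CPM at Day 13. All 5 letters were lower at Day 13, but libraries D and E stood above A to C by more than the ages differed. The log2 change of -2.21 ± 1.33 in control was not called (SE, edgeR, adjusted p = 0.21), whereas with the replicate block it was -1.74 (edgeR, adjusted p = 0.0055). In overexpressing worms the change of nuo-2 was -2.63 ± 1.24 (SE, edgeR, adjusted p = 0.11), and -1.79 with the block (edgeR, adjusted p = 0.032).

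nuo-5 (Y45G12B.1, chromosome V, 2698972 to 2706984), the iron-sulfur subunit that is the largest of the peripheral arm, had the smallest change of the complex in control worms. nuo-5 measured 6.46, 9.62, 10.1, 13.5 and 20.5 CPM in control L4 libraries and 8.9, 6.71, 9.75, 5.63 and 9.2 CPM at Day 13. Overexpressing worms held 9.43, 8.68, 8.75, 12.7 and 17.3 CPM of nuo-5 at L4 and 5.73, 4.62, 5.01, 7.41 and 4.06 CPM at Day 13, without overlap. The log2 change was -0.80 ± 0.41 in control (SE, edgeR, adjusted p = 0.14, or 0.077 with the block) and -1.15 ± 0.36 in overexpressing worms (SE, edgeR, adjusted p = 0.023). Of the other subunits, nuo-1, which binds NADH, was called in overexpressing worms alone, at -1.16 (edgeR, adjusted p = 0.019), and in control worms with the block, at -1.31 (edgeR, adjusted p = 0.037). The accessory subunit genes nuo-3 and lpd-5 were called in control worms, at -1.46 (edgeR, adjusted p = 0.096) and -2.09 (edgeR, adjusted p = 0.083), and each gained a call in overexpressing worms with the block. These control calls of nuo-3 and lpd-5 were lost without any of 7 and 6 of the 10 libraries. gas-1, nuo-5 and nuo-6 each overlap a coding gene on the opposite strand, and nuo-1 and nuo-3 a coding gene on the same strand, so reads of these genes are uncertain where the counting did not separate them.

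Complex II, the succinate dehydrogenase, is shared with the citric acid cycle. mev-1 (T07C4.7, chromosome III, 10334277 to 10335168) encodes its cytochrome b anchor. mev-1 measured 1.9, 4.06, 3.68, 4.25 and 6.68 CPM in control L4 libraries and 1.33, 1.7, 1.95, 2.49 and 3.88 CPM at Day 13. Overexpressing worms held 3.96, 3.98, 3.86, 4.03 and 6.77 CPM of mev-1 at L4 and 3.2, 2.15, 1.83, 2.08 and 3.33 CPM at Day 13. The ages did not overlap in overexpressing worms, and all 5 letters fell in both strains. The log2 changes of mev-1 were -1.08 ± 0.42 (SE, edgeR, adjusted p = 0.064) and -0.91 ± 0.32 (SE, edgeR, adjusted p = 0.039), and the calls were lost without any of 6 control libraries or without overexpressing Day 13 library B or C. A noncoding gene lies across mev-1 on the opposite strand.

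sdhb-1 (F42A8.2, chromosome II, 9350714 to 9352731), the iron-sulfur subunit, measured 3.45, 4.38, 4.43, 55.7 and 58.6 CPM in control L4 libraries and 3.01, 1.98, 2.74, 16.8 and 13.8 CPM at Day 13. Overexpressing worms held 4.88, 2.43, 2.37, 45.3 and 91.9 CPM of sdhb-1 at L4 and 2.33, 1.82, 4.97, 10.8 and 24.3 CPM at Day 13. Again D and E were high at both ages. In control and overexpressing worms the log2 changes were -1.81 ± 0.96 in control (SE, edgeR, adjusted p = 0.16) and -1.83 ± 1.12 in overexpressing worms (SE, edgeR, adjusted p = 0.21), and with the block -1.41 in control (edgeR, adjusted p = 0.0095).

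sdhd-1 (F33A8.5, chromosome II, 11049144 to 11049913), the small membrane anchor, behaved in the opposite manner in control worms of letters A to C. sdhd-1 measured 131, 169, 157, 95.2 and 128 CPM in control L4 libraries and 258, 337, 194, 41.8 and 33.9 CPM at Day 13, so that A to C were higher and D and E lower at Day 13. Overexpressing worms held 46.1, 86.2, 49.3, 61.9 and 94.2 CPM of sdhd-1 at L4 and 36.8, 77.3, 51.7, 39.9 and 46.3 CPM at Day 13. The estimated log2 changes were 0.08 ± 0.65 in control (SE, edgeR, adjusted p = 0.94) and -0.48 ± 0.37 in overexpressing worms (SE, edgeR, adjusted p = 0.31). Within D and E alone the control change was -1.58 (edgeR, adjusted p = 0.0074), and within A to C 0.44 (edgeR, adjusted p = 0.27).

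sdha-1 (C03G5.1, chromosome X, 8542757 to 8546021), the flavoprotein that oxidizes succinate, measured 6.46, 9.69, 8.26, 30.3 and 32.6 CPM in control L4 libraries and 10.3, 13.2, 8.19, 8.02 and 9.11 CPM at Day 13. Overexpressing worms held 7.21, 5.58, 4.27, 22.2 and 25.8 CPM of sdha-1 at L4 and 2.13, 3.5, 4.14, 6.79 and 4.92 CPM at Day 13. It was lower in all 5 letters in overexpressing worms but in 3 letters in control worms. Between the ages the log2 changes were -1.0 ± 0.51 (SE, edgeR, adjusted p = 0.14) and -1.69 ± 0.59 (SE, edgeR, adjusted p = 0.04).

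Complex III, the cytochrome bc1 complex, passes electrons from ubiquinol to cytochrome c. isp-1 (F42G8.12, chromosome IV, 8134016 to 8136055) encodes its Rieske iron-sulfur protein. isp-1 measured 6.78, 6.74, 7.64, 74.5 and 77.2 CPM in control L4 libraries and 5.85, 5.05, 12.4, 12.5 and 14.9 CPM at Day 13. Overexpressing worms held 11.2, 7.38, 8.3, 50.4 and 90.7 CPM of isp-1 at L4 and 7.76, 3.78, 3.57, 14.2 and 13.4 CPM at Day 13. The 2 high L4 libraries in each strain were D and E, and the remaining L4 libraries lay within the Day 13 range of their strain. The log2 changes of isp-1 were -1.89 ± 0.78 (SE, edgeR, adjusted p = 0.078) and -2.08 ± 0.80 (SE, edgeR, adjusted p = 0.058). Letters A to C of control worms gave -0.22 (edgeR, adjusted p = 0.65) and D and E -2.48 (edgeR, adjusted p = 0.00048), against -1.07 (edgeR, adjusted p = 0.041) and -2.31 (edgeR, adjusted p = 0.0014) in overexpressing worms. Each call was lost without any of 5 libraries, L4 D and E and Day 13 A to C of the same strain.

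cyc-1 (C54G4.8, chromosome I, 8022674 to 8024422), cytochrome c1, measured 6.5, 6.09, 7.71, 10.4 and 15.6 CPM in control L4 libraries and 5.54, 3.99, 4.56, 8.12 and 12.8 CPM at Day 13. Overexpressing worms held 11.4, 7.55, 12.3, 13.3 and 14.1 CPM of cyc-1 at L4 and 9.41, 5.74, 6.19, 8.61 and 5.24 CPM at Day 13. All 5 letters were lower in each strain, and the ages overlapped in both. The log2 changes were -0.61 ± 0.45 (SE, edgeR, adjusted p = 0.30, or 0.059 with the block) and -0.80 ± 0.34 (SE, edgeR, adjusted p = 0.079), the second of which was lost without any of 6 libraries. cyc-1 overlaps a coding gene on the opposite strand.

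The core proteins of complex III differed among themselves. ucr-1, core protein 1, had log2 changes of -1.62 in control (edgeR, adjusted p = 0.023, held under every leave-out) and -1.91 in the other strain (edgeR, adjusted p = 0.091, lost without any of 6 libraries). ucr-2.1, the more abundant of the paralogs of core protein 2 that were listed, measured 124 to 165 CPM in control L4 and 18.8 to 138 CPM in control Day 13 libraries, with a log2 change of -0.97 (edgeR, adjusted p = 0.22, or 0.061 with the block). In overexpressing worms ucr-2.1 went from 55.9 to 147 CPM at L4 to 16.8 to 36.6 CPM at Day 13, without overlap, and fell by 1.74 (edgeR, adjusted p = 0.006). Its paralog ucr-2.3 was the only gene with a positive log2 change in both strains, at 0.63 (edgeR, adjusted p = 0.27) and 0.22 (edgeR, adjusted p = 0.64), neither of which was called. ucr-2.3 measured 5.21 to 6.71 CPM in control L4, 6.34 to 17.4 CPM in control Day 13, 5.64 to 12.6 CPM in overexpressing L4 and 7.57 to 13.6 CPM in overexpressing Day 13 libraries, and it overlaps a coding gene on the opposite strand.

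Complex IV, cytochrome c oxidase, reduces oxygen. cox-5B (F26E4.9, chromosome I, 9788725 to 9790050) measured 79.5, 63, 54.7, 1140 and 1594 CPM in control L4 libraries and 85.2, 93.6, 163, 514 and 406 CPM at Day 13. Overexpressing worms held 233, 41, 44.4, 1036 and 1450 CPM of cox-5B at L4 and 22.4, 18.1, 119, 450 and 651 CPM at Day 13. Libraries D and E were the highest of every group. In control and overexpressing worms the log2 changes were -1.31 ± 0.99 (SE, edgeR, adjusted p = 0.32) and -1.25 ± 1.18 (SE, edgeR, adjusted p = 0.42), and in control worms the direction differed between letters A to C, at 0.44 (edgeR, adjusted p = 0.28), and D and E, at -1.59 (edgeR, adjusted p = 0.0091).

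cox-6A (F54D8.2, chromosome III, 5081724 to 5082995) measured 30.4, 22.3, 8.08, 345 and 557 CPM in control L4 libraries and 5.75, 5.33, 5.88, 122 and 138 CPM at Day 13. Overexpressing worms held 161, 17.1, 24.1, 257 and 438 CPM of cox-6A at L4 and 23.1, 18.4, 104, 296 and 171 CPM at Day 13. All 5 letters were lower at Day 13 in control worms and 2 of 5 in overexpressing worms. The log2 change of -1.90 ± 1.29 in control was not called (SE, edgeR, adjusted p = 0.27), and with the block it was -1.92 (edgeR, adjusted p = 0.0051), while overexpressing worms gave -0.64 ± 0.96 (SE, edgeR, adjusted p = 0.61).

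cox-7C (F26E4.6, chromosome I, 9773172 to 9774012) had the smallest change of the complex in control worms. cox-7C measured 876, 911, 997, 498 and 754 CPM in control L4 libraries and 1353, 1423, 1208, 155 and 147 CPM at Day 13. Overexpressing worms held 461, 509, 343, 358 and 592 CPM of cox-7C at L4 and 153, 241, 387, 242 and 235 CPM at Day 13. In control worms letters A to C rose and D and E fell. The estimated log2 changes were -0.19 ± 0.67 (SE, edgeR, adjusted p = 0.85) and -0.91 ± 0.35 (SE, edgeR, adjusted p = 0.06, lost without any of 5 libraries).

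cox-5A (Y37D8A.14, chromosome III, 12905491 to 12906619) measured 1351, 1287, 1450, 673 and 899 CPM in control L4 libraries and 974, 1091, 943, 205 and 183 CPM at Day 13. Overexpressing worms held 634, 777, 672, 551 and 770 CPM of cox-5A at L4 and 323, 466, 459, 283 and 286 CPM at Day 13, without overlap. Between the ages the log2 changes were -1.01 ± 0.59 (SE, edgeR, adjusted p = 0.20, or 0.022 with the block) and -0.96 ± 0.31 (SE, edgeR, adjusted p = 0.029). Of the remaining subunit genes, cox-6B was lower in both strains, at -1.18 (edgeR, adjusted p = 0.053) and -1.28 (edgeR, adjusted p = 0.089), and cox-4 in control worms alone, at -1.03 (edgeR, adjusted p = 0.08). The calls of cox-6B were lost without any of 5 libraries in each strain and that of cox-4 without any of 9. The annotated span of cox-6B contains many other genes on both strands.

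Complex V makes ATP. atp-1 (H28O16.1, chromosome I, 12652277 to 12654655), the F1 alpha subunit, measured 41.9, 39.2, 43.9, 201 and 240 CPM in control L4 libraries and 25.2, 20.6, 42.4, 59.1 and 52 CPM at Day 13. Overexpressing worms held 55.4, 40.5, 45.5, 169 and 285 CPM of atp-1 at L4 and 25.4, 21, 27.5, 43.3 and 82 CPM at Day 13. Each letter was lower in both strains. The log2 changes were -1.65 ± 0.64 (SE, edgeR, adjusted p = 0.061, lost without any of 5 libraries) and -1.67 ± 0.66 (SE, edgeR, adjusted p = 0.063, lost without any of 6).

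atp-3 (F27C1.7, chromosome I, 5428533 to 5429908), the OSCP subunit that joins the stalk to F1, measured 17.7, 17.8, 16.2, 87.3 and 157 CPM in control L4 libraries and 13.4, 12, 16.1, 56.6 and 79 CPM at Day 13. Overexpressing worms held 36.8, 40.9, 39.5, 69.5 and 114 CPM of atp-3 at L4 and 39.3, 30.5, 29.8, 61 and 29.8 CPM at Day 13. The fall was smaller than the spread between libraries. In control and overexpressing worms the log2 changes were -0.89 ± 0.80 (SE, edgeR, adjusted p = 0.41, or 0.065 with the block) and -0.74 ± 0.44 (SE, edgeR, adjusted p = 0.20).

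The b subunit of the peripheral stalk is encoded by paralogs, asb-1, known as the form of the germ line, and asb-2. asb-2 (F02E8.1, chromosome X, 4469766 to 4471476) measured 82.1, 89.7, 91.2, 91.7 and 152 CPM in control L4 libraries and 58.3, 66.7, 67.2, 11.2 and 12.7 CPM at Day 13. Overexpressing worms held 39.4, 54.7, 63.2, 65.8 and 121 CPM of asb-2 at L4 and 9.61, 16.6, 18.3, 12.8 and 9.47 CPM at Day 13. The ages did not overlap in either strain. asb-2 fell by 1.47 ± 0.60 in control (SE, edgeR, adjusted p = 0.072, lost without any of 7 libraries) and by 2.44 ± 0.42 in overexpressing worms (SE, edgeR, adjusted p = 0.00084, held under every leave-out).

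asb-1 (F35G12.10, chromosome III, 4594543 to 4595821) measured 4.36, 4.7, 3.24, 6.97 and 5.26 CPM in control L4 libraries and 3.18, 3.04, 3.11, 6.6 and 9.15 CPM at Day 13. Overexpressing worms held 6.8, 9.22, 6.97, 6.9 and 10.5 CPM of asb-1 at L4 and 7.31, 8.25, 4.53, 6.18 and 6.75 CPM at Day 13. The ages overlapped in both strains. The estimated log2 changes were -0.18 ± 0.43 (SE, edgeR, adjusted p = 0.76) and -0.35 ± 0.32 (SE, edgeR, adjusted p = 0.40), and library totals without the top 3% of genes turned them to 0.39 and 0.012.

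asg-2 (C53B7.4, chromosome X, 6841258 to 6842121), a paralog of subunit g of the membrane sector, had the change of greatest size in overexpressing worms. asg-2 measured 38.3, 46.8, 49.4, 81.6 and 149 CPM in control L4 libraries and 39.9, 38.4, 46.6, 8.93 and 11.1 CPM at Day 13. Overexpressing worms held 30.6, 32.1, 42.6, 64.2 and 117 CPM of asg-2 at L4 and 6.05, 5.08, 7.84, 10.6 and 7.4 CPM at Day 13. The separation was complete in overexpressing worms, while in control worms only D and E fell clearly. Between the ages the log2 changes were -1.54 ± 0.60 (SE, edgeR, adjusted p = 0.063, lost without any of 6 libraries) and -3.03 ± 0.49 (SE, edgeR, adjusted p = 0.00053, held under every leave-out). The other subunit genes, atp-4, atp-5 (stalk subunit d) and hpo-18 (F1 epsilon), had log2 changes of -0.67, -0.67 and -1.35 in control and -1.75, -0.66 and -0.57 in overexpressing worms, and none was called. With the block, hpo-18 was called in control worms, at -1.55 (edgeR, adjusted p = 0.007), and atp-4 in overexpressing worms, at -1.60 (edgeR, adjusted p = 0.028). atp-4 overlaps a coding gene on the same strand.

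Of the carriers, ant-1.1 (T27E9.1, chromosome III, 13463163 to 13464652), the ADP/ATP carrier, measured 1569, 1247, 1280, 2655 and 3709 CPM in control L4 libraries and 744, 567, 1058, 892 and 777 CPM at Day 13. Overexpressing worms held 1321, 489, 158, 2033 and 3670 CPM of ant-1.1 at L4 and 63.6, 72.1, 1029, 856 and 1172 CPM at Day 13. Control worms showed no overlap between the ages, whereas the overexpressing libraries varied widely within each age. ant-1.1 fell by 1.57 ± 0.42 in control (SE, edgeR, adjusted p = 0.014, held under every leave-out), and its change in overexpressing worms was -1.35 ± 0.95 (SE, edgeR, adjusted p = 0.27).

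cyc-2.1 (E04A4.7, chromosome IV, 4747895 to 4749012), cytochrome c, measured 1228, 896, 1420, 833 and 1196 CPM in control L4 libraries and 2126, 1655, 1953, 320 and 180 CPM at Day 13. Overexpressing worms held 417, 499, 571, 620 and 1175 CPM of cyc-2.1 at L4 and 283, 302, 474, 484 and 358 CPM at Day 13. Letters A to C rose and D and E fell in control worms, and all 5 letters fell in overexpressing worms. The log2 changes were -0.10 ± 0.63 (SE, edgeR, adjusted p = 0.92) and -0.86 ± 0.38 (SE, edgeR, adjusted p = 0.094, lost without any of 8 libraries). Letters A to C of control worms gave 0.35 (edgeR, adjusted p = 0.23) and D and E -2.04 (edgeR, adjusted p = 0.0034).

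The chain genes fell into groups by how libraries D and E stood to A to C. At L4 in control worms, 11 of the 33 genes (33.3%) had a mean log2 level more than 4-fold higher in D and E, against 11% of 7175 genes. They were nuo-2, nuo-3, gas-1, lpd-5, sdhb-1, isp-1, cox-5B, cox-6A, atp-1, atp-3 and atp-4, and 0 were more than 4-fold lower. In overexpressing L4 libraries 12 genes (36.4%) were more than 4-fold higher in D and E, against 12.6% of all genes, and the median difference of the 33 genes was 0.87 in both strains, against -0.01 and -0.08 for all genes. Between the mean levels of the letter sets the ratio in control L4 libraries was 41.9 for nuo-2, 22.3 for cox-6A, 20.8 for cox-5B, 14 for sdhb-1 and 10.8 for isp-1.

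At Day 13 the control libraries showed a further group. In D and E, 9 genes (27.3%) were more than 4-fold lower than in A to C, against 13.1% of all genes: nuo-1, sdhd-1, ucr-2.1, cox-5A, cox-7C, asb-2, asg-2, hpo-18 and cyc-2.1. Another 6 (18.2%, against 6.27% of all genes) were more than 4-fold higher, namely nuo-2, lpd-5, sdhb-1, cox-5B, cox-6A and atp-3. In overexpressing Day 13 libraries 6 genes were more than 4-fold higher (18.2%, against 5.9%) and 0 lower (1.44% of all genes). Subunits of the same complex thus stood on opposite sides, as nuo-2 and nuo-1 did in complex I and cox-6A and cox-7C in complex IV.

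**Figure D3:**
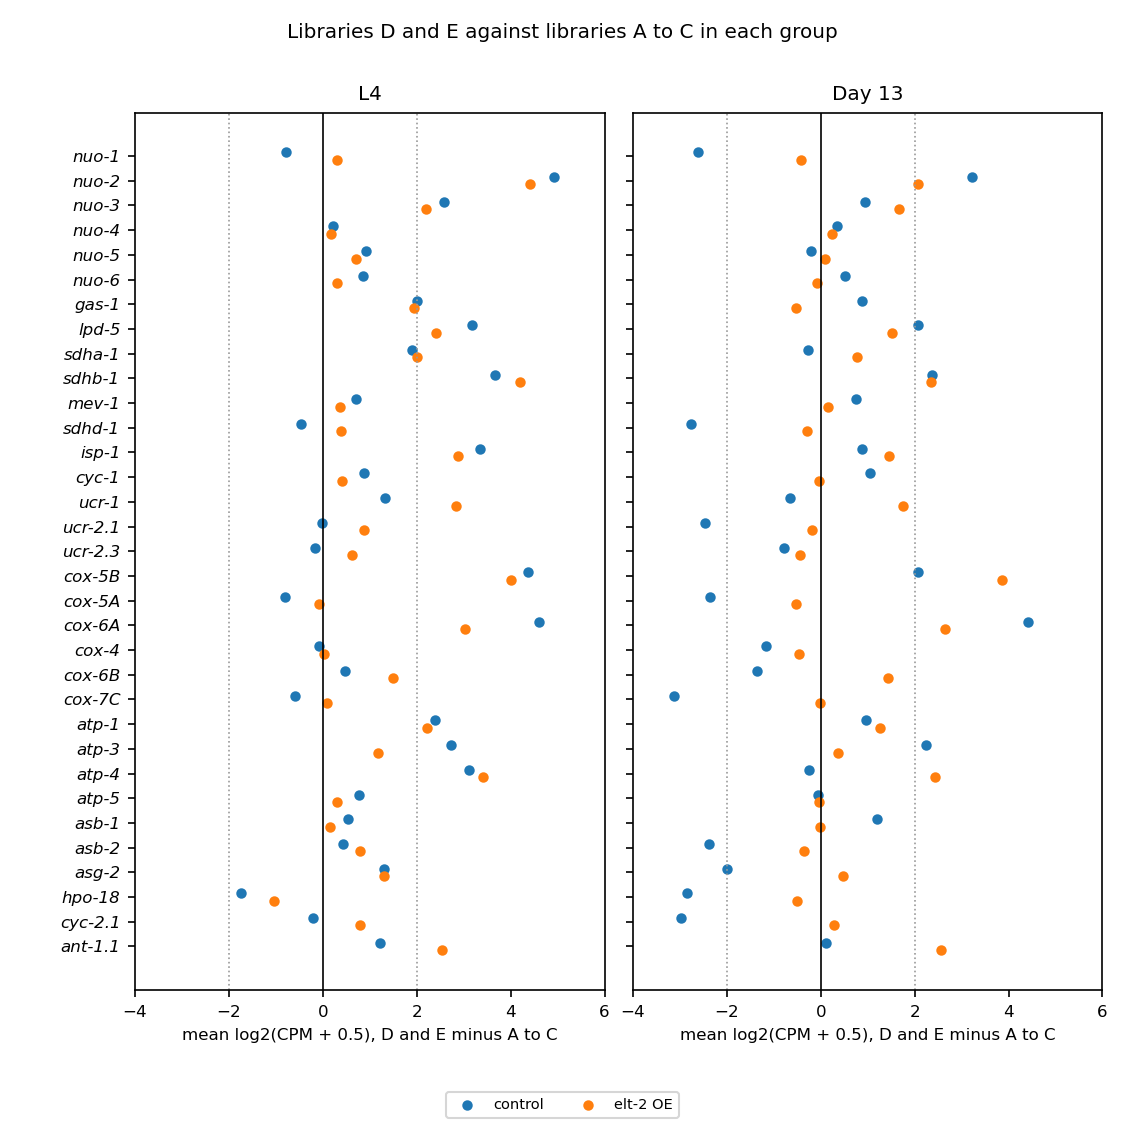
Difference in mean log2(CPM + 0.5) of libraries D and E from libraries A to C for each of the 33 genes at L4 (left) and Day 13 (right), in control (blue) and elt-2 overexpressing worms (orange); dotted lines mark 4-fold. At L4, 24 control and 31 overexpressing points lie right of 0, and at Day 13 the control points of 9 genes lie left of the lower dotted line.

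Whether elt-2 overexpression changed the chain genes was asked at each age. At L4, 0 of the 33 genes differed between the strains, where 3 of 8696 genes did (0.0345%). Of the 33, 6 had an unadjusted p under 0.05, beside 911 of the 8696 genes. DESeq2's Wald test called 2, cox-7C and sdhd-1, both lower (6.06%, against 3.63% of all genes). At Day 13, 0 of 33 differed, where 1 of 8544 did (0.0117%), and 8 had an unadjusted p under 0.05, beside 1125 of the 8544 genes. There DESeq2 called 8, of which 7 were lower (21.2%, against 6.81% of all genes) and nuo-6 was higher (3.03%, against 1.86%). Without control Day 13 library E, edgeR called 7 at Day 13, of which 6 were lower (18.2%) and 1 higher (3.03%), and the calls over all genes rose as well, to 6.28% lower and 1.26% higher. With the replicate block at L4, 0 of 33 genes and 2.43% of all genes were called. The block gave 12 of the 33 an unadjusted p under 0.05, beside 1866 of the 8696 genes. The 1 gene called at Day 13 in the main fit was elt-2 itself, higher by 2.47 ± 0.30 (SE, edgeR, adjusted p = 0.018). At L4 elt-2 was higher by 1.83 ± 0.54 but was not called (SE, edgeR, adjusted p = 0.34). The L4 test thus missed the overexpressed gene, and 0 calls there do not show equal levels.

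The strain difference with the lowest p at L4 was that of sdhd-1, whose values given above do not overlap between the strains and were lower in the overexpressing library of all 5 letters. Its log2 difference was -1.06 ± 0.37 (SE, edgeR, adjusted p = 0.40, unadjusted p = 0.015). cox-7C and cox-5A, also lower in all 5 letters, differed by -0.89 ± 0.33 (SE, edgeR, adjusted p = 0.41) and -0.79 ± 0.32 (SE, edgeR, adjusted p = 0.44). At Day 13 the leading genes were asg-2, at -1.98 ± 0.54 (SE, edgeR, adjusted p = 0.32), sdha-1, at -1.2 ± 0.39 (SE, edgeR, adjusted p = 0.32), and nuo-6, at 0.93 ± 0.31 (SE, edgeR, adjusted p = 0.32). sdha-1 was lower in all 5 letters without overlap, and asg-2 in 4 letters, while nuo-6 was higher in 4 letters.

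Within letters A to C the strains differed in many more genes. At L4, 9 genes were lower in overexpressing worms (17.2% of all genes lower) and 3 higher (15.6% of all genes higher). The lower genes were nuo-1, sdhd-1, ucr-2.1, cox-5A, cox-6B, cox-7C, asb-2, hpo-18 and cyc-2.1, and the higher genes nuo-6, atp-3 and asb-1. At Day 13, 14 genes were lower (23.2% of all genes) and 7 higher (23.7% of all genes), and these included the same 9 and the same 3. The L4 calls made up 64.3% of the lower and 42.9% of the higher Day 13 calls. The matching shares over all genes were not counted. Libraries D and E alone gave 0 calls at either age, where 30 of 8963 genes at L4 and 0 of 8875 at Day 13 were called. An unadjusted p under 0.05 went to 0 chain genes at L4 and 1 at Day 13, beside 581 and 378 of all genes.

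Single genes show the difference between the letter sets. The log2 difference of cyc-2.1 between the strains at Day 13 was -2.91, -2.45 and -2.04 in letters A to C and 0.59 and 0.99 in D and E. For cox-7C it was -3.14, -2.56 and -1.64 in A to C and 0.64 and 0.68 in D and E. sdhd-1 gave -2.79, -2.11 and -1.90 in A to C and -0.06 and 0.44 in D and E. The set of letters in which a gene was low in the overexpressing strain was the set in which control Day 13 libraries were high, and both statements rest on the same control libraries. nuo-6 was higher in overexpressing worms in all 5 letters at L4 and in A to D at Day 13, where the A to C difference was 1.2 (edgeR, adjusted p = 0.013) and the D and E difference 0.52 (edgeR, adjusted p = 0.88).

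**Figure D4:**
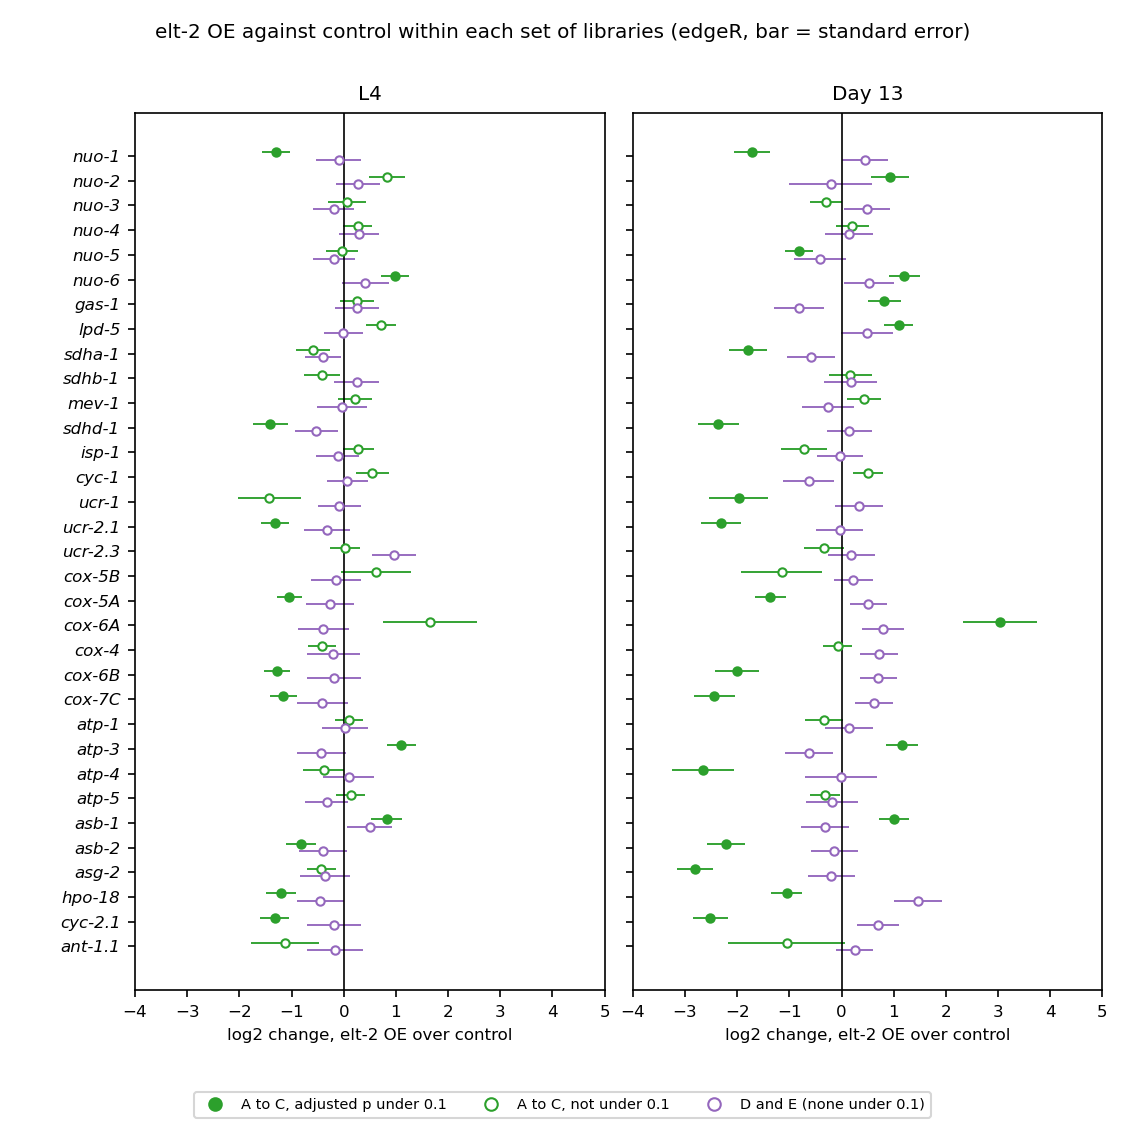
Log2 difference of elt-2 overexpressing from control worms for each of the 33 genes at L4 (left) and Day 13 (right), fitted within letters A to C (green; filled, adjusted p under 0.1) and within D and E (purple); bars are standard errors (edgeR). In A to C, 12 points are filled at L4 and 21 at Day 13, and in D and E none is.

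The age changes themselves were compared between the strains with an interaction term on all 20 libraries. The test called 0 of the 33 genes and 0 of 10545 genes (0%). Of the 33, 1 had an unadjusted p under 0.05, asg-2, beside 266 of the 10545 genes. DESeq2 also called 0. In letters A to C alone asg-2 was called, with an age change lower by 2.23 on the log2 scale in overexpressing worms (edgeR, adjusted p = 0.058). The age and strain comparisons share libraries, so their values for a gene are not independent.

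Ratios between paralogs within a library do not depend on library size. The ratios of 5 pairs were compared in 4 comparisons, 20 tests in all, with two-sided exact permutation tests over 252 placements of 5 and 5 libraries, whose smallest p is 0.00794. After adjustment over the 20 tests, 9 were under 0.1. Tested instead over the letters as pairs, where 32 sign flips allow no p under 0.0625, 0 of the 20 passed.

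For the b subunit, the log2 ratio of asb-1 to asb-2 counts was -4.23, -4.25, -4.81, -3.71 and -4.84 in control L4 libraries and -2.53, -2.56, -3.18, -3.25 and -3.52 in overexpressing L4 libraries. The strains did not overlap, and the difference of the means was 1.36 (exact permutation test p = 0.00794, adjusted p = 0.0227, higher in 5 of 5 letters). At Day 13 the ratio was -4.19, -4.45, -4.43, -0.76 and -0.47 in control and -0.39, -1.0, -2.01, -1.05 and -0.49 in overexpressing libraries, with a difference of 1.87 (exact permutation test p = 0.135, adjusted p = 0.245). In control worms the ratio thus stayed near its L4 value in A to C and rose in D and E. It rose with age by 2.02 in overexpressing worms (exact permutation test p = 0.00794, adjusted p = 0.0227) and by 1.51 in control worms (exact permutation test p = 0.222, adjusted p = 0.328).

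For core protein 2, the log2 ratio of ucr-2.1 to ucr-2.3 was 4.57, 4.49, 4.61, 4.56 and 4.88 in control L4 and 2.85, 3.49, 3.36, 3.34 and 3.54 in overexpressing L4 libraries. Its mean differed by -1.31, in every letter (exact permutation test p = 0.00794, adjusted p = 0.0227), and by nearly the same amount in both sets of letters, at -1.33 and -1.28. At Day 13 the ratio was 4.24, 2.99, 3.01, 2.09 and 1.38 in control and 0.74, 1.06, 1.97, 1.48 and 1.60 in overexpressing libraries. The strain difference there was -1.37 (exact permutation test p = 0.0397, adjusted p = 0.0882, lower in 4 of 5 letters), lost when any of 9 of the 10 libraries was left out, and -0.2 in letters D and E. With age the ratio fell in all 5 letters of each strain, with differences of -1.88 in control and -1.95 in overexpressing worms (exact permutation test p = 0.00794, adjusted p = 0.0227 each).

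The cytochrome c paralogs moved the other way with age. The log2 ratio of cyc-2.1 to cyc-2.2 was higher at Day 13 in every letter, with differences of 3.33 in control and 4.34 in overexpressing worms (exact permutation test p = 0.00794, adjusted p = 0.0227 each). cyc-2.2 itself held 11 to 155 counts per library at L4 and 1 to 9 at Day 13, so the Day 13 ratio rests on few reads of cyc-2.2. At L4 the ratio was lower in overexpressing worms by 1.98 (exact permutation test p = 0.0238, adjusted p = 0.0595, lower in 5 of 5 letters). For gas-1 to nduf-2.2 and ant-1.1 to ant-1.2 the adjusted p was 0.251 or more in all 8 comparisons, and ant-1.2 had 0 to 6 counts.

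**Figure D5:**
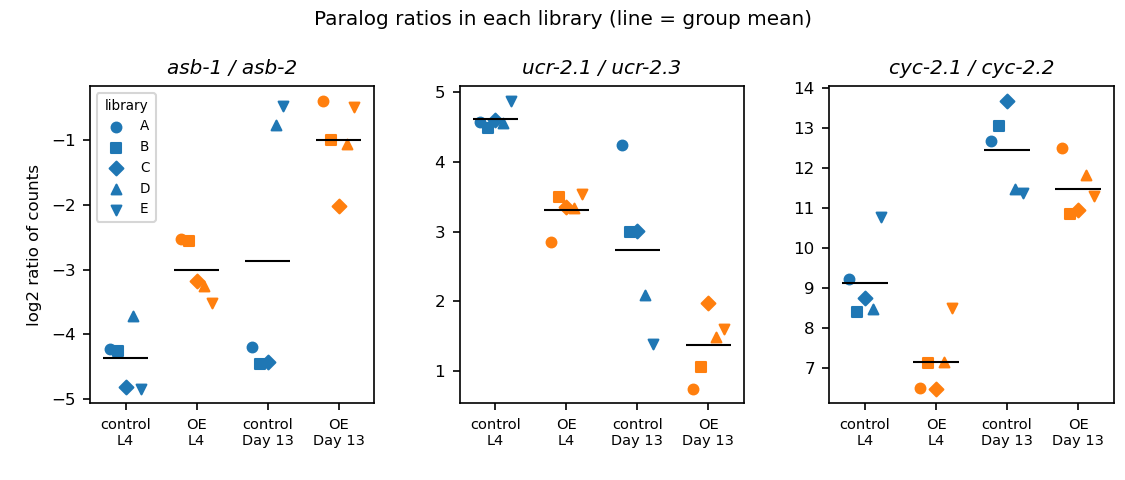
Log2 ratio of counts of asb-1 to asb-2, ucr-2.1 to ucr-2.3 and cyc-2.1 to cyc-2.2 in each library of the 4 groups (symbols, letters A to E; blue, control; orange, elt-2 overexpressing; black line, group mean). The L4 strains do not overlap for asb-1 to asb-2 and ucr-2.1 to ucr-2.3, and control Day 13 libraries D and E stand apart from A to C for asb-1 to asb-2.

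Genes of the same pathway outside the list were counted in the same fits. A further list held 38 other nuclear genes of the chain, the synthase and the carriers. Not all encode subunits, as it included cyc-2.2, ant-1.2, ant-1.3, ant-1.4, mai-1 and mai-2. Of the 38, 36 could be tested with age in each strain. In control worms 12 were lower (33.3%, against 23.7% of all genes) and 0 higher, with a median of -1.01. With the block 24 were lower, beside 29.9% of all genes. In overexpressing worms 22 were lower (61.1%, against 23.4% of all genes) and 0 higher, with a median of -1.39. In control worms the largest fall among those called was that of the cytochrome c gene cyc-2.2, by 4.06 (edgeR, adjusted p = 0.000296), and the smallest that of ndab-2, by 1.31 (edgeR, adjusted p = 0.0232). In letters A to C 17 of 36 were lower and 4 higher in control worms, beside 29.6% and 25.8% of all genes. In overexpressing worms 19 of 36 were lower there, beside 25.5% of all genes. In D and E 29 of 36 in control and 24 of 37 in overexpressing worms were lower, beside 28.1% and 29.1% of all genes. atp-2 (C34E10.6) measured 81.5, 70.7, 60.1, 365 and 387 CPM in control L4 libraries and 32.4, 28.8, 26.3, 89.9 and 73.7 CPM at Day 13. Overexpressing worms held 96.6, 85.7, 85.5, 303 and 534 CPM of atp-2 at L4 and 49.1, 41.1, 31.2, 53.9 and 103 CPM at Day 13. atp-2 fell in every letter of both strains, by 2.07 ± 0.68 (SE, edgeR, adjusted p = 0.033) and by 2.08 ± 0.63 (SE, edgeR, adjusted p = 0.022).

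The genes of mitochondrial DNA, which encode the catalytic core of the chain, were lower as well. Of 12 such genes 11 were lower at Day 13 in each strain and 0 higher. Over all genes 23.7% were lower in control and 23.4% in overexpressing worms. The medians of the 12 genes were -1.69 in control and -1.41 in overexpressing worms. Their summed level was 1101 to 2119 CPM in control L4, 332 to 606 CPM in control Day 13, 1494 to 3175 CPM in overexpressing L4 and 580 to 1051 CPM in overexpressing Day 13 libraries, and the ages did not overlap in either strain. The control fall was largest for MTCE.31, by 2.45 (edgeR, adjusted p = 0.00122), and among those called smallest for ND1, by 1.5 (edgeR, adjusted p = 0.0179), and MTCE.35 was not called, at -0.52 (edgeR, adjusted p = 0.344). In letters A to C 11 were lower in each strain, beside 29.6% of all genes in control and 25.5% in overexpressing worms. In D and E 11 were lower in control and 6 in overexpressing worms, beside 28.1% and 29.1% of all genes. The control medians in letters A to C and in D and E were -1.66 and -1.64, where those of the 33 nuclear genes were -0.76 and -1.92. In overexpressing worms they were -1.60 and -1.17, where those of the nuclear genes were -0.95 and -1.23. These medians come from fits scaled within each letter set. The medians per letter given earlier used CPM scaled over all 20 libraries, so the 2 kinds differ in size. Between the strains all 12 were higher in overexpressing worms at both ages by estimate, 0 were called by edgeR or DESeq2, and 1 at each age had an unadjusted edgeR p under 0.05. In letters A to C 5 were called higher at each age, beside 15.6% of all genes at L4 and 23.7% at Day 13. In D and E 0 were, beside 26 of 8963 genes at L4 and 0 of 8875 at Day 13. There 0 of the 12 had an unadjusted p under 0.05. The poly(A) selection used for these libraries bears on how much mitochondrial RNA is counted.

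Neighbouring pathways were counted in the same fits. Of 15 genes of pyruvate dehydrogenase and the citric acid cycle, 7 (46.7%) were lower in control and 11 (73.3%) in overexpressing worms and 0 higher, where 42.4% and 54.5% of the 33 chain genes were lower. Of all genes 23.7% were lower in control and 23.4% in overexpressing worms. The medians of the 15 genes were -0.76 and -1.06. In letters A to C 10 and 8 of the 15 were lower, beside 29.6% and 25.5% of all genes. In D and E 8 and 9 were lower, beside 28.1% and 29.1% of all genes. In control worms dlst-1, of the oxoglutarate dehydrogenase complex, fell by 1.91 (edgeR, adjusted p = 0.0341) and ogdh-1, of the same complex, by 0.76 (edgeR, adjusted p = 0.0839). Of 8 genes of ubiquinone synthesis, 8 were tested in control and 7 in overexpressing worms. In control worms coq-1, by 1.31 (edgeR, adjusted p = 0.0205), and coq-8, by 0.86 (edgeR, adjusted p = 0.0422), were lower, and in overexpressing worms coq-5 was, by 0.75 (edgeR, adjusted p = 0.0932). Of 5 assembly factor genes 4 were tested, of which cox-15, needed to make heme a for complex IV, was lower in control worms, by 1.43 (edgeR, adjusted p = 0.0595), and 0 in overexpressing worms. Beside the 23.7% and 23.4% of all genes lower, neither the ubiquinone nor the assembly list stood clearly above all genes in these fits. Within letters A to C 2 of 7 ubiquinone genes were lower in control and 1 of 7 in overexpressing worms, and within D and E 3 of 8 were lower in control worms and 1 of 8 was higher in overexpressing worms. Over all genes 27.1% were higher in D and E of overexpressing worms, and the shares lower are those given above for the citric acid cycle. Of the assembly factor genes, 1 of 3 in A to C and 1 of 5 in D and E were lower in control worms and 0 in either set in overexpressing worms.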

How the data were processed

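Whole-worm poly(A) RNA of 20 libraries was sequenced at the 3' end (3SEQ) by the authors, and the deposited values are raw read counts per gene, not normalized. The submitters' processing notes name Bowtie 0.12.7, and the genome build, the annotation, the use of strand and the handling of duplicate reads are not given in the sources used here. Of the table, 1 column with values that matched no sample and 3 columns without a header were not used. Gene IDs were matched to WBcel235 (Ensembl release 115) for 20206 of 21383 rows (94.5%), which also gave the coordinates. Genotypes and culture were taken from the labels and the study's methods.

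Counts were fitted with edgeR 4.0.16 (R 4.3.3; TMM factors, expression filter, robust quasi-likelihood fit), without covariates, on the 10 libraries compared, or on all 20 for the interaction. p-values were adjusted by Benjamini-Hochberg over all genes tested, with a threshold of 10%. CPM used library totals multiplied by TMM factors taken over all 20 libraries. Log2 levels used CPM with 0.5 added, and ratios used counts with 0.5 added. The fits were tested on simulated data. Alternatives were DESeq2 1.42.0 (Wald test and size factors), no filter, totals without the top 3% of genes, the letter as a replicate block, letters A to C or D and E alone, and each library left out. Same-letter libraries correlated in their deviations from the group means by 0.523 to 0.800 between the strains at L4. Between the ages the correlations were 0.410 to 0.642 in control and 0.103 to 0.589 in overexpressing worms. All of these were over 0.1. Correlations between different letters were not computed, so the check cannot tell pairing by letter from the split of A to C and D and E. The block and the sign-flip test thus rest on the replicate letters of the labels. The labels state 5 biological replicates per group.

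The members and lists were chosen with earlier results of these data known. Named with library values are 12 genes fixed by name, in each complex the genes with the largest and smallest age change in control worms, and the 3 with the lowest p between strains at each age. sdha-1 was among the latter. Of other lists, the genes with the largest and smallest called changes are named. Floors cover counting error only, whereas the standard errors come from the edgeR fits and include the spread between libraries. The reads carry no molecular identifiers. No sequences are printed.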

Additional observations from a re-analysis of the deposited data

Results flagged for a closer look

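In 132 groups of 5 libraries (33 genes in 4 groups), the highest or lowest library was compared with the rest by its gap to the nearest value as a share of the range (Dixon's limit 0.71), and 8 groups had a library that stood apart. Chance gives about 1 in 20 groups, and the genes are not independent. All 8 were library E and all were high. In overexpressing L4 library E these were nuo-1 at 386 CPM (next 262), nuo-6 at 10.8 CPM (next 7.55), mev-1 at 6.77 CPM (next 4.03), ucr-2.1 at 147 CPM (next 81.1) and cyc-2.1 at 1175 CPM (next 620). In overexpressing Day 13 library E these were nuo-2 at 15.9 CPM (next 2.82) and atp-4 at 393 CPM (next 93.5). In control L4 library E it was asb-2 at 152 CPM (next 91.7). None of the results compared between strains gained a call from the interaction test.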

How the results depend on the processing

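Of the 5 counts of members called, those with DESeq2 size factors in edgeR stayed within 1.5 times the main count. Between strains at L4 the main count of 0 became 2 with DESeq2's Wald test and 12 in letters A to C, and at Day 13 0 became 8 with DESeq2, 21 in letters A to C and 0 to 7 with a library left out. In control worms with age, 14 became 26 in letters D and E, 5 without a filter (15.2%, below the 17.4% of all genes lower), 24 with the replicate block, 8 with totals without the top 3% of genes and 5 to 11 with a library left out. In overexpressing worms 18 became 11 without a filter, 10 with the top 3% left out and 9 to 19 with a library left out. The interaction count of 0 became 1 in letters A to C, and leaving out a library changed neither it nor the L4 strain count, both 0. Of the paralog ratios 9 passed, 8 to 10 with a library left out and 0 in the sign-flip test over letters as pairs. Within a letter set ratios could not be tested, and only their direction is given. At Day 13 between strains the letters did not all correlate (0.073 for A), so they share only a letter. The block there gave 0 calls, with 7 members and 854 of 8544 genes at an unadjusted p under 0.05.

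Changes that reversed were those near 0 or those that differed between letter sets, and of these only that of sdhd-1 in control letters D and E was called. In control worms with age cox-5B gave 0.44 in letters A to C. cyc-2.1 gave 0.26 with the top 3% left out, 0.20 without a filter, 0.35 in letters A to C and -0.27 to 0.24 with a library left out. asb-1 gave 0.39 with the top 3% left out, 0.058 without a filter, 0.35 in letters D and E and -0.45 to 0.064 with a library left out, and in overexpressing worms 0.012 with the top 3% left out. sdhd-1 gave -0.37 with the block, -1.58 in letters D and E and -0.30 to 0.40 with a library left out. cox-7C gave 0.19 with the top 3% left out, 0.11 without a filter, 0.17 in letters A to C and -0.43 to 0.14 with a library left out. Among log2 ratios, letters D and E gave -0.16 for asb-1 to asb-2, 0.13 for cyc-2.1 to cyc-2.2 and 0.21 for ant-1.1 to ant-1.2 between strains at Day 13, and 0.18 for gas-1 to nduf-2.2 at L4, while gas-1 to nduf-2.2 at Day 13 ranged from -1.1 to 0.11 with a library left out. The cause of these changes was not tested. Library totals of 10749795 to 42317549 counts limit the genes with few counts most, such as cyc-2.2 and ant-1.2.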
